A study of Mus musculus with 6 samples.

Results

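The 10 genes described here are direct transcriptional targets of the tumour suppressor p53 that are well established in mouse cells: Cdkn1a, Plk2, Ccng1, Mdm2, Zmat3, Bbc3, Aen, Trp53inp1, Phlda3 and Eda2r. They were taken by symbol from a table of 28476 genes, in which each of the 10 had a single row. The libraries came from 3 HepKO livers, whose genotype label reads Nedd4 HepKO, and 3 Flox livers. All mice were C57BL/6 and had been fasted overnight, and all livers were taken 24 h after acetaminophen (APAP) had been injected into the peritoneum at 300 mg/kg. Acetaminophen in overdose kills hepatocytes. The Cre driver of the HepKO mice and the age of the animals are not given in the sources used here, and livers without acetaminophen are not analysed here. The series title names the ubiquitin ligase NEDD4-1 as the protein under study.

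p53 is a transcription factor that is kept scarce by the ubiquitin ligase MDM2 and accumulates after DNA damage and other stress. It binds DNA as a tetramer, at a pair of adjacent decamers, and activates genes that stop the cell cycle, start apoptosis, aid repair or feed back on p53 itself. In the injured liver, induction of Cdkn1a, which encodes the cell cycle inhibitor p21, is known to hold back hepatocyte division. Several of these genes also respond to other transcription factors, so their transcripts are not a measure of p53 alone.

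The promoter sequences of the genes were set beside their expression first, because p53 acts through a short DNA motif. RefSeq windows on GRCm38.p6, from 250 bases before to 50 bases after a transcription start, were found for 8 of the 10 genes, as 12 windows. The p53 consensus site, 20 letters made of a pair of decamers with no spacer, is its own reverse complement, so a single scan covers both strands. Of all 32851 windows, 0.0883% held a 20-letter match with at most 1 mismatch, 6.29% held one with at most 3 mismatches, and 8.36% held an exact single decamer. Among the 8 genes, Cdkn1a and Ccng1 had a match with 1 mismatch, while Aen and Bbc3 had 3 mismatches at best. Mdm2, Plk2 and Phlda3 had 5 mismatches at best, a level that 76.6% of all windows reach, and Eda2r had 6. An exact decamer was present for 4 genes: Cdkn1a, Ccng1, Mdm2 and Aen. Each gene is given by its best window, whereas the shares are of single windows. Genes with more than 1 window (Cdkn1a, Aen and Bbc3) thus had more chances of a match. Sites outside these windows, and pairs of decamers with a spacer, were not searched. A poor match here therefore does not show that a gene lacks a p53 site.

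The closest matches of 4 genes are shown in capitals with their position, to compare genes that differ in expression below.
Cdkn1a, chr17:29090928-29090947, plus strand: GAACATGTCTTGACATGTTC
Ccng1, chr11:40755462-40755481, minus strand: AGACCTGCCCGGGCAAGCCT
Bbc3, chr7:16309486-16309505, plus strand: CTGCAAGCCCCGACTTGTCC
Aen, chr7:78895937-78895956, plus strand: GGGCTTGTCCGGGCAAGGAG

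The windows of 3 genes are printed in full: Cdkn1a and Ccng1, which hold the closest matches, and Plk2, which had the largest fold among the tested members. Capitals mark the p53 match in the Cdkn1a and Ccng1 windows, which lay 51 to 32 bases and 195 to 176 bases before the start. RefSeq gives Cdkn1a a second start 2790 bases downstream, whose window had 5 mismatches at best. In the Plk2 window, capitals mark TGACGTCA, the palindromic cyclic AMP response element bound by CREB and ATF proteins, which begins 62 bases before the start. This motif was chosen after the window had been read, and it occurred in 1.79% of all windows and in none of the other windows of these genes.
Cdkn1a, chr17:29090729-29091028, plus strand: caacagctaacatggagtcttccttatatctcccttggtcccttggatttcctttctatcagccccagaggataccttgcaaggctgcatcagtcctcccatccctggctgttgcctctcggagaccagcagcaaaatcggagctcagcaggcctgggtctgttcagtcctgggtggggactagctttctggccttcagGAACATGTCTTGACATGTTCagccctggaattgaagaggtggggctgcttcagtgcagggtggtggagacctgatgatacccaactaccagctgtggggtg
Ccng1, chr11:40755237-40755536, minus strand: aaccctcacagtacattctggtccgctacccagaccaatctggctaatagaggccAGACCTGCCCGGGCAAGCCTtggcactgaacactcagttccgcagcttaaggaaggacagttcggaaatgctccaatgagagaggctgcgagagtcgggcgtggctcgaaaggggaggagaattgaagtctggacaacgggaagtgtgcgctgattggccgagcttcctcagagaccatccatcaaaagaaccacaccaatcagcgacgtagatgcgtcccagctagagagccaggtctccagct
Plk2, chr13:110394794-110395093, plus strand: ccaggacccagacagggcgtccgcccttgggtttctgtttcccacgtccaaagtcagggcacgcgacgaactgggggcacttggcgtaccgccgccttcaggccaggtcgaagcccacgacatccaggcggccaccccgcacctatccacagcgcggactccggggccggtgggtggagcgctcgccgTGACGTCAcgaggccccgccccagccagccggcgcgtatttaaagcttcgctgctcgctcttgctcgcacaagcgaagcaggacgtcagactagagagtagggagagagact
A match is a description of the letters, and p53 binding was not measured here.

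Expression values are FPKM, fragments per kilobase of transcript scaled to the sequenced total, as deposited. The libraries summed to between 456176 and 496303 FPKM, and their depth in reads is unknown. Nedd4, the targeted gene, had 0.618, 0.666 and 0.565 FPKM in HepKO livers, against 2.18, 2.59 and 2.23 FPKM in Flox livers, with no overlap (log2 fold change -1.04, SE 0.10, limma adjusted p = 0.0015; exact two-sided permutation p = 0.10, the smallest that 3 against 3 libraries allow). HepKO replicate 1 stood apart in the share of its FPKM from mitochondrial genes, 24.6%, against 16.7% to 18.3% in the other 5 libraries, and the counts of the 10 genes and of the cell type markers are therefore also given without it. No label ties a library to a single animal, and the p-values therefore describe variation among these 6 libraries, which may be partly technical. Tests were made with limma on log2(FPKM + 1) over the 12712 genes that averaged 0.5 FPKM or more, and log2 fold changes are on that scale, which understates the change of low genes. Folds are ratios of group mean FPKM.

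Of the 10 genes, 9 passed the filter on low values and Eda2r did not. Cdkn1a, Plk2, Bbc3 and Mdm2 rose in HepKO livers, none fell, and 5 did not pass. Over all tested genes, 20.3% were called, 9.33% as higher and 11.0% as lower (limma, adjusted p of 0.05 or less). At an unadjusted p under 0.05, the counts were 5 higher, with Aen added, and 0 lower, against 14.8% of all tested genes higher and 20.9% lower at that threshold. Without HepKO replicate 1 the counts were again 4 higher and 0 lower. The median log2 fold change of the 9 tested genes was 0.36, against -0.06 over all tested genes. The HepKO and Flox values did not overlap for 5 of the 9, HepKO being higher in each, and this held for 17.2% of all tested genes.

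**Figure D1:**
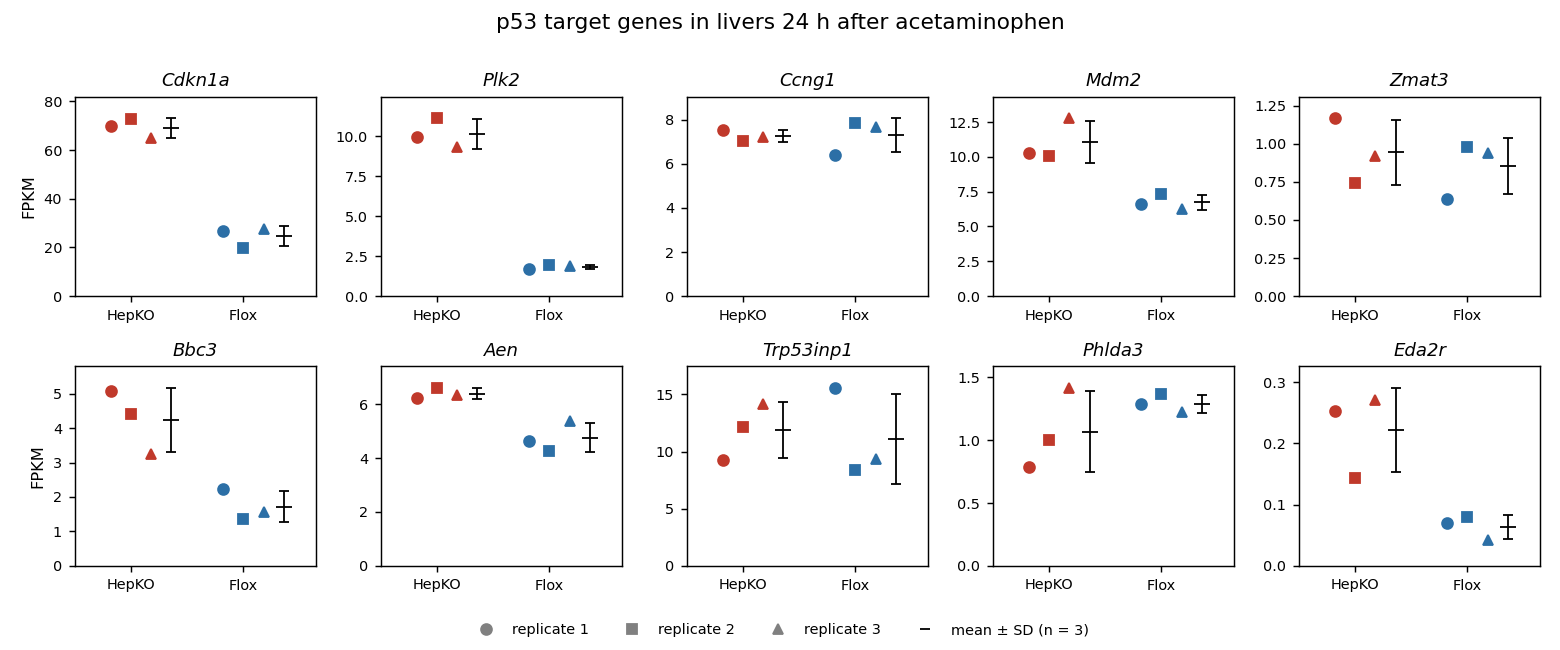
FPKM of each of the 10 p53 target genes (vertical axes, linear from 0, one scale per gene) in the 3 HepKO and 3 Flox livers, with symbols for replicates and the mean ± SD beside them. The HepKO points lie above all Flox points for Cdkn1a, Plk2, Mdm2, Bbc3, Aen and Eda2r, and overlap with them for Ccng1, Zmat3, Trp53inp1 and Phlda3.

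Cdkn1a (ENSMUSG00000023067, chr17:29090976-29100727, GRCm38) was the most abundant of the 10. It had 69.8, 72.9 and 64.9 FPKM in HepKO livers, against 26.8, 19.9 and 27.4 FPKM in Flox livers. All HepKO livers lay far above all Flox livers, and the HepKO livers varied less in proportion than the Flox livers, with a coefficient of variation of 5.81% against 17.0%. The fold was 2.80 (log2 fold change 1.46, SE 0.14, limma adjusted p = 0.0015). Cdkn1a made up 53.9% to 58.0% of the summed FPKM of the 10 genes in HepKO livers and 37.2% to 44.4% in Flox livers. An antisense gene that overlaps it, 1700023B13Rik, averaged 0.51 FPKM over the 6 libraries, and the sources used here do not say whether counting used strand.

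Plk2 encodes a polo-like kinase that is induced by serum as well as by p53 and acts in the cell cycle and at synapses. It had 9.93, 11.2 and 9.32 FPKM in HepKO livers, against 1.67, 1.92 and 1.89 FPKM in Flox livers. No HepKO liver came near the Flox range, and the spread within each group was small. The fold was 5.55 (log2 fold change 1.98, SE 0.11, limma adjusted p = 0.00036), which placed Plk2 at rank 88 of the 12712 tested genes by log2 fold change, with Cdkn1a at rank 208. Cdkn1a and Plk2 were called in each of the 16 alternative fits.

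Ccng1 encodes cyclin G1, a partner of the phosphatase PP2A that acts on MDM2, and is a classical p53 target. It had 7.54, 7.04 and 7.20 FPKM in HepKO livers, against 6.41, 7.83 and 7.66 FPKM in Flox livers. The HepKO values lay inside the Flox range. The log2 fold change was -0.004 (SE 0.11, 95% limma interval -0.26 to 0.25, adjusted p = 0.99). Ccng1 and Cdkn1a each hold a p53 match with 1 mismatch in the windows printed above, and of these genes Cdkn1a passed and Ccng1 did not.

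Zmat3, a zinc finger RNA-binding protein gene, was near 1 FPKM throughout. It had 1.17, 0.743 and 0.922 FPKM in HepKO livers, against 0.640, 0.981 and 0.939 FPKM in Flox livers, and the groups overlapped. Its log2 fold change of 0.07 did not pass (95% limma interval -0.25 to 0.38, adjusted p = 0.75).

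Mdm2 encodes the ubiquitin ligase that marks p53 for degradation and is itself activated by p53, which closes a feedback loop. It had 10.3, 10.1 and 12.8 FPKM in HepKO livers, against 6.59, 7.35 and 6.27 FPKM in Flox livers. The groups did not overlap, though the lowest HepKO liver was less far above the highest Flox liver than for Cdkn1a or Plk2. The fold was 1.64 (log2 fold change 0.63, SE 0.12, limma adjusted p = 0.016), and leaving out Flox replicate 3 ended the call (adjusted p = 0.058).

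**Figure D2:**
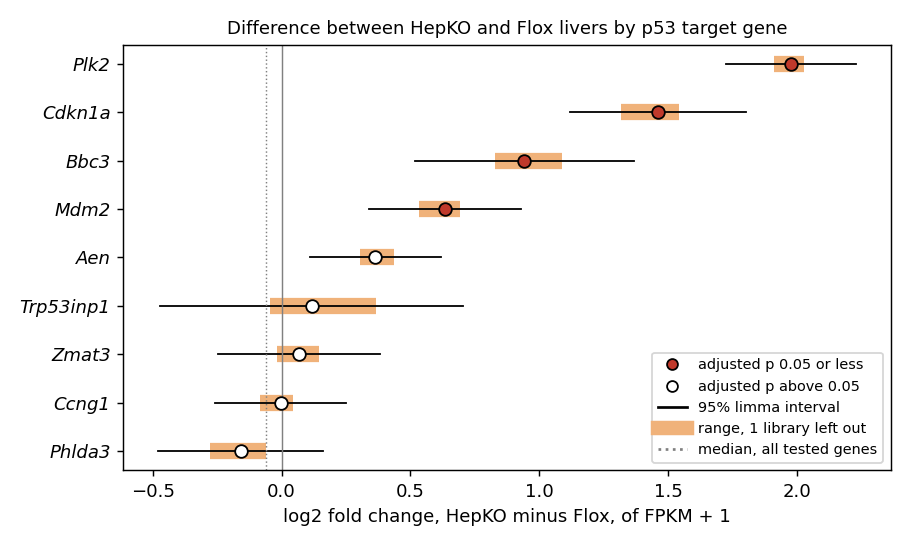
Log2 fold change of FPKM + 1, HepKO minus Flox (horizontal axis), of the 9 tested p53 target genes, with the 95% limma interval (black line) and the range over the 6 fits that leave out 1 library (orange bar). Filled points passed at an adjusted p of 0.05 or less. The order runs from Plk2 at 1.98 down to Phlda3 at -0.16, and the intervals of Trp53inp1, Zmat3, Ccng1 and Phlda3 include 0.

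Among the genes tied to cell death, Bbc3 rose. It encodes PUMA, a BH3-only protein that blocks antiapoptotic BCL2 proteins. Bbc3 had 5.08, 4.40 and 3.24 FPKM in HepKO livers, against 2.22, 1.37 and 1.57 FPKM in Flox livers. The groups did not overlap, and the spread within each was wide, with a coefficient of variation of 22.0% in HepKO and 25.9% in Flox livers. The fold was 2.47 (log2 fold change 0.94, SE 0.18, limma adjusted p = 0.014). The call was lost without HepKO replicate 2 (adjusted p = 0.054), Flox replicate 2 (0.052) or Flox replicate 3 (0.05005). Its log2 fold change stayed between 0.83 and 1.09 when 1 library was left out.

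Aen encodes an apoptosis-enhancing nuclease. It had 6.24, 6.61 and 6.34 FPKM in HepKO livers, against 4.64, 4.28 and 5.36 FPKM in Flox livers. The groups did not overlap, and the HepKO livers were the most uniform of any of the 10 genes, with a coefficient of variation of 2.99%. The fold of 1.34 did not pass (log2 fold change 0.36, 95% limma interval 0.11 to 0.62, adjusted p = 0.054). It passed after median-ratio rescaling (adjusted p = 0.025), after rescaling to a sum that leaves out mitochondrial genes and the 50 most abundant (0.035), and with a filter at a mean of 1 FPKM (0.04995).

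Eda2r encodes a receptor of the tumour necrosis factor receptor family that binds ectodysplasin A2. It had 0.253, 0.144 and 0.270 FPKM in HepKO livers, against 0.0694, 0.0791 and 0.0423 FPKM in Flox livers. All HepKO values were higher than all Flox values, at a level too low to pass the filter. The fold of means was 3.50, and its counting error is unknown without read depth. With no filter on low values, limma gave it a log2 fold change of 0.20 and an adjusted p = 0.075, in a fit that called 3.55% of genes as higher. In the authors' deposited table Eda2r had a q-value of 0.011. The authors' deposited table also gave q-values of 3.13e-12 for Cdkn1a, 4.12e-24 for Plk2, 0.0016 for Mdm2, 0.0016 for Bbc3 and 0.078 for Aen. At a q-value of 0.05 or less the authors' deposited table thus called 5 of the 10 genes as higher, against 5.39% of its 28476 genes. That share is over an unlike set, since only 26473 of those genes had any signal and many were under the filter.

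Trp53inp1, a nuclear protein gene that promotes p53 activity and autophagy, was the most variable of the abundant members. It had 9.28, 12.2 and 14.1 FPKM in HepKO livers, against 15.6, 8.39 and 9.32 FPKM in Flox livers, and the highest single value was that of Flox replicate 1. Its log2 fold change was 0.12 (95% limma interval -0.47 to 0.71, adjusted p = 0.78).

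Phlda3 encodes a small pleckstrin homology domain protein that keeps the kinase AKT off the membrane. It had 0.787, 0.998 and 1.42 FPKM in HepKO livers, against 1.28, 1.36 and 1.22 FPKM in Flox livers. HepKO replicates 1 and 2 lay below all Flox livers, and HepKO replicate 3 lay above them. The log2 fold change was -0.16 (95% limma interval -0.48 to 0.16, adjusted p = 0.44). A p above the threshold does not show that these 4 overlapping genes were equal between genotypes, and their intervals give the sizes that the data allow.

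To compare the members with each other, each was divided by Ccng1 in the same library, so that any scaling of a library cancels. Ccng1 was chosen as the denominator after its values had been seen. The Plk2 to Ccng1 ratio was 1.32, 1.58 and 1.296 in HepKO livers, against 0.261, 0.245 and 0.246 in Flox livers. The Cdkn1a to Ccng1 ratio was 9.26, 10.4 and 9.02 in HepKO livers, against 4.18, 2.54 and 3.58 in Flox livers. For Bbc3 the ratio was 0.583 ± 0.118 in HepKO and 0.242 ± 0.0913 in Flox livers, and for Mdm2 it was 1.52 ± 0.222 in HepKO and 0.928 ± 0.105 in Flox livers (SD, n = 3 each). The ratios of Plk2, Cdkn1a, Bbc3, Mdm2, Aen and Eda2r did not overlap between groups, and each had an exact two-sided permutation p = 0.10, the smallest possible (0.15 adjusted over the 9 ratios). Those of Zmat3, Phlda3 and Trp53inp1 overlapped (exact permutation p = 0.40, 0.40 and 0.80).

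**Figure D3:**
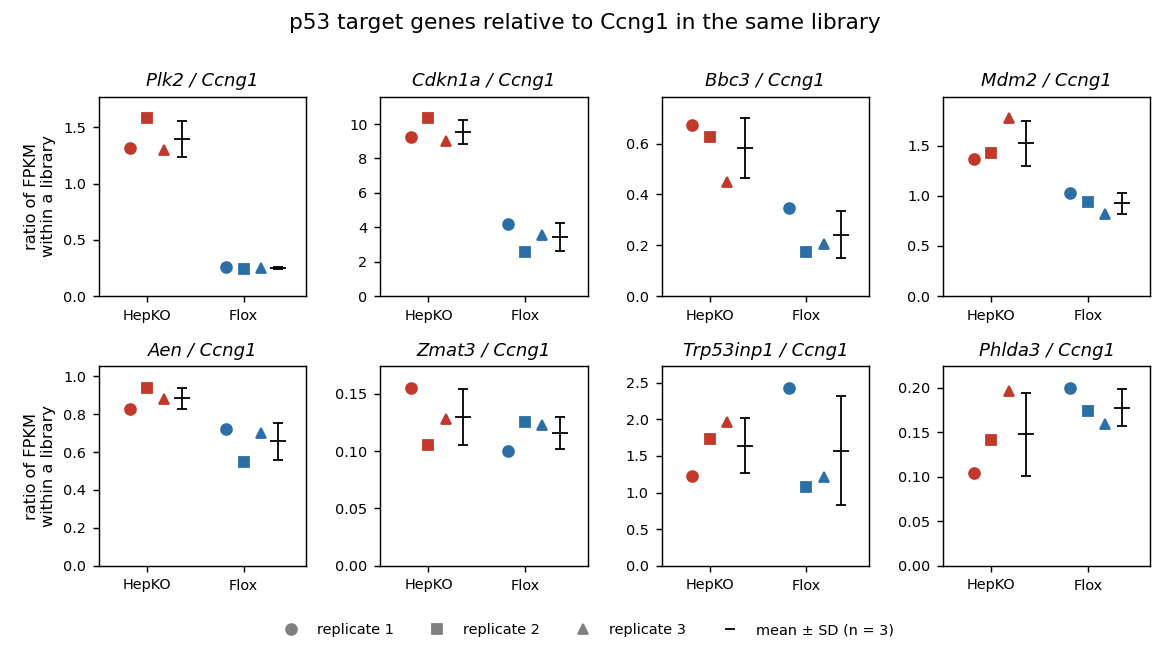
Ratio of the FPKM of 8 p53 target genes to that of Ccng1 within each library (vertical axes, linear from 0), for the 3 HepKO and 3 Flox livers, with the mean ± SD. The HepKO ratios lie above all Flox ratios for Plk2, Cdkn1a, Bbc3, Mdm2 and Aen, and overlap with them for Zmat3, Trp53inp1 and Phlda3.

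No single library was the highest for all members. Within the HepKO group, replicate 1 was the highest for 3 of the 10 genes, replicate 2 for 3 and replicate 3 for 4. Within the Flox group, replicate 2 was the highest for 6 genes and the lowest for 4. The FPKM of the 10 genes summed to 120.4, 126.2 and 120.5 in HepKO livers, against 65.9, 53.4 and 61.7 in Flox livers.

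The transcript of p53 itself overlapped between the genotypes. Trp53 had 9.33, 9.31 and 10.5 FPKM in HepKO livers, against 8.80, 9.34 and 10.6 FPKM in Flox livers, a difference that did not pass (log2 fold change 0.02, 95% limma interval -0.24 to 0.28, adjusted p = 0.92). p53 is controlled mainly as a protein, which was not measured. Of 20 genes of the p53 family and its regulators, 12 were tested, and 0 rose and 1 fell (limma; 1 higher and 2 lower at an unadjusted p under 0.05). The median log2 fold change of the 12 was 0.04. Over all 20, tested or not, HepKO values lay below all Flox values for 5 genes and above them for 0. Besides Mdm4 these were Cop1, Atm, Chek2 and Prkdc, named after their values were seen. Cop1 did not pass (limma adjusted p = 0.10). Atm, Chek2 and Prkdc were under the filter (with no filter, limma adjusted p = 0.34, 0.11 and 0.19). HepKO lay above without overlap for 17.2% of all tested genes. The share below, and shares that include untested genes, were not computed, so the counts of 5 and 0 only describe the list. The gene called as lower was Mdm4, which encodes the MDM2 partner that inhibits p53. It had 2.19, 0.762 and 0.824 FPKM in HepKO livers, against 2.82, 3.09 and 3.07 FPKM in Flox livers. HepKO replicate 1 lay apart from the other HepKO livers and close to the Flox range. The log2 fold change was -0.88 (SE 0.23, limma adjusted p = 0.041). The call held in only 7 of the 16 alternatives, where the adjusted p ran from 0.0057, without HepKO replicate 1, to 0.12, without HepKO replicate 2. It was also lost without HepKO replicate 3 (0.097) or Flox replicate 1 (0.080), 2 (0.11) or 3 (0.11), with no filter on low values (0.10), after median-ratio rescaling (0.066), and after rescaling without mitochondrial and abundant genes (0.063). Usp7, the deubiquitinase of MDM2 and p53, had 9.06 ± 3.14 FPKM in HepKO and 9.16 ± 3.07 FPKM in Flox livers (SD, n = 3 each; limma adjusted p = 0.98).

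Other established p53 targets were counted by function. Of 15 genes of growth arrest and metabolism, 10 were tested, 5 rose and 1 fell (limma; 5 higher and 2 lower at an unadjusted p under 0.05), with a median log2 fold change of 0.92. The growth arrest gene Gadd45a had 41.1, 41.9 and 59.0 FPKM in HepKO livers, against 2.53, 3.97 and 2.10 FPKM in Flox livers (log2 fold change 3.65, limma adjusted p = 0.00043). The antiproliferative gene Btg2 had 113, 132 and 77.8 FPKM in HepKO livers, against 6.89, 6.10 and 9.25 FPKM in Flox livers (log2 fold change 3.68, adjusted p = 0.00044). Both differences were larger than that of any of the 10 genes. Gdf15, a stress-induced secreted factor, had 71.0, 78.9 and 56.7 FPKM in HepKO livers, against 22.3, 10.1 and 11.4 FPKM in Flox livers (log2 fold change 2.23, limma adjusted p = 0.0037). The other rises, named after their values were seen, were those of the mTORC1 inhibitors Ddit4 (log2 fold change 2.28, adjusted p = 0.0026) and Sesn2 (0.92, adjusted p = 0.021). Tigar, a regulator of glycolysis named in the same way, fell (log2 fold change -0.59, adjusted p = 0.042). Leaving out 1 library ended the Sesn2 call for HepKO replicates 1 (adjusted p = 0.060) and 3 (0.052) and Flox replicates 2 (0.060) and 3 (0.065). It ended the Tigar call for HepKO replicates 1 (0.11) and 2 (0.12) and Flox replicates 2 (0.10) and 3 (0.11). Gls2, a glutaminase gene named in the same way, had 21.8, 21.1 and 21.6 FPKM in HepKO livers, against 40.8, 31.2 and 26.4 FPKM in Flox livers. All its HepKO values were below all Flox values, and it missed the threshold (log2 fold change -0.57, limma adjusted p = 0.0501), which it passed in 3 of the 16 alternatives. An antisense gene that overlaps Gls2, Spryd4, averaged 23.5 FPKM over the 6 libraries, against 27.1 FPKM for Gls2. Whether counting used strand is not known, so reads of Spryd4 may be part of the Gls2 values.

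Targets tied to death pathways, besides the members, formed a list of 10 genes. Of these, 6 were tested, and 0 rose and 2 fell (limma; the same 0 and 2 at an unadjusted p under 0.05), with a median log2 fold change of -0.32. Fas, the death receptor, had 2.99, 3.21 and 2.65 FPKM in HepKO livers, against 5.21, 5.80 and 4.62 FPKM in Flox livers (log2 fold change -0.65, SE 0.12, limma adjusted p = 0.011). Ei24, an autophagy gene of the endoplasmic reticulum, had 18.2, 13.3 and 18.7 FPKM in HepKO livers, against 33.3, 28.8 and 27.6 FPKM in Flox livers (log2 fold change -0.82, SE 0.15, adjusted p = 0.014). For both genes the groups did not overlap, and both were called in each of the 16 alternatives. The 4 untested genes included 2 whose HepKO values all lay above the Flox values, both named after their values were seen. Pmaip1, which encodes the BH3-only protein NOXA, had 0.539, 0.356 and 0.284 FPKM in HepKO livers, against 0.213, 0.120 and 0.0315 FPKM in Flox livers (fold of means 3.24; with no filter, limma adjusted p = 0.12). The death receptor gene Tnfrsf10b averaged 0.329 ± 0.123 FPKM in HepKO and 0.191 ± 0.0505 FPKM in Flox livers (SD, n = 3 each; with no filter, limma adjusted p = 0.34), and its lowest HepKO and highest Flox values were equal to 3 digits. Perp, a desmosomal membrane protein gene, averaged 43.8 ± 5.45 FPKM in HepKO and 53.1 ± 1.49 FPKM in Flox livers (SD, n = 3 each; limma adjusted p = 0.14). All its HepKO values lay below all Flox values. Over the list of 10, tested or not, HepKO lay above in this way for 2 genes and below for 3. Of 8 DNA repair and mitochondrial targets, 7 were tested and none passed (limma; 0 higher and 2 lower at an unadjusted p under 0.05; median log2 fold change -0.26). The most abundant, Triap1, averaged 8.51 ± 2.29 FPKM in HepKO and 13.7 ± 0.697 FPKM in Flox livers (adjusted p = 0.052, and 0.046 without HepKO replicate 1). Next came Fdxr with 3.97 ± 0.515 FPKM in HepKO and 4.93 ± 0.368 FPKM in Flox livers (adjusted p = 0.17). Over these 8 targets, tested or not, HepKO values lay below all Flox values for 4 genes and above them for 1. HepKO lay above in this way for 17.2% of all tested genes. The share below, and shares that include untested genes, were not computed. The counts without overlap of the death and the repair targets therefore only describe the lists.

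**Figure D4:**
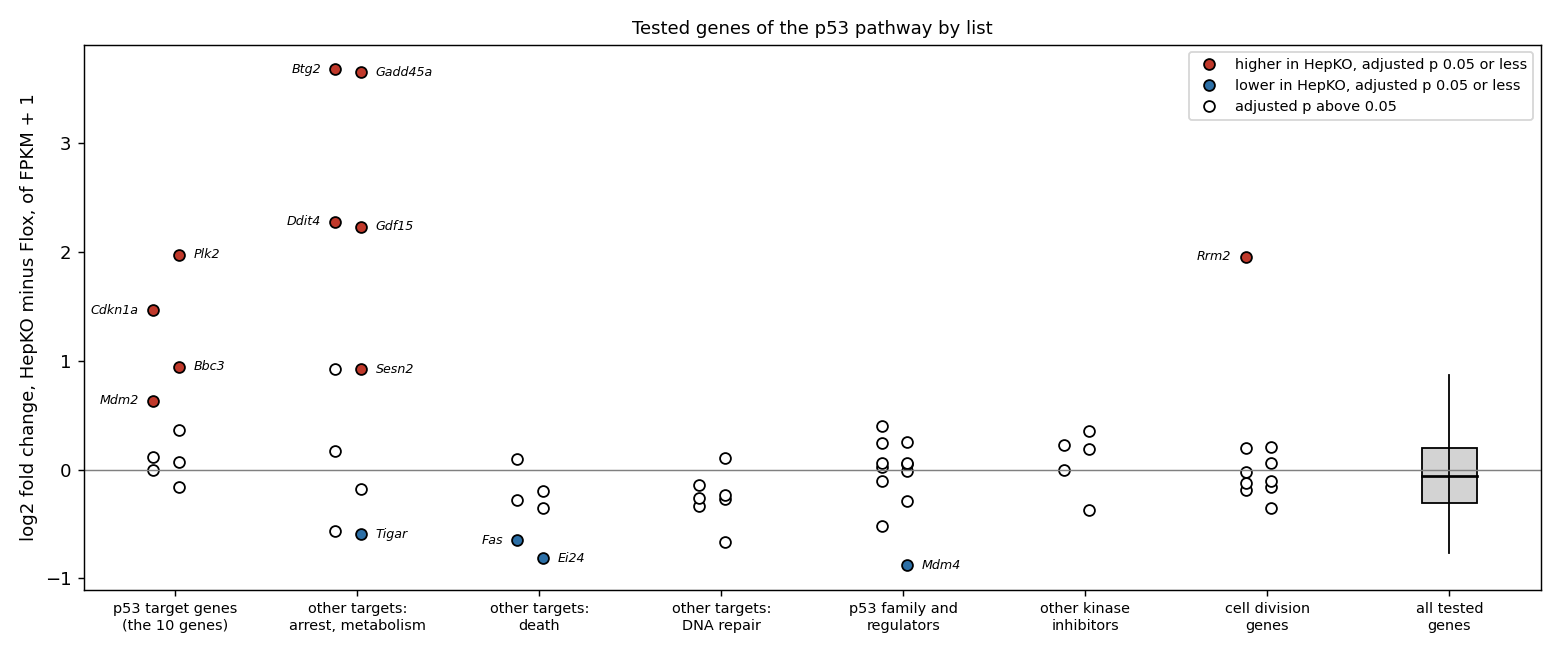
Log2 fold change of FPKM + 1, HepKO minus Flox (vertical axis), of every tested gene of the p53 pathway lists, with all tested genes at the right as a box (quartiles and median) and line (5th to 95th percentile). Red points rose and blue points fell at an adjusted p of 0.05 or less. The rises sit among the 10 genes and the arrest and metabolism targets, with Rrm2 alone among the cell division genes. The falls are Fas and Ei24 among the death targets, Mdm4 among the regulators and Tigar among the arrest and metabolism targets.

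Genes that p21 is known to act on or with were examined next. A list of 5 further cyclin-dependent kinase inhibitor genes (Cdkn1b, Cdkn1c, Cdkn2b, Cdkn2c and Cdkn2d) was tested in full and none passed (limma; 1 higher and 0 lower at an unadjusted p under 0.05). Cdkn1b, which encodes p27, averaged 4.66 ± 0.716 FPKM in HepKO and 3.42 ± 0.311 FPKM in Flox livers (SD, n = 3 each; limma adjusted p = 0.10, and 0.044 without HepKO replicate 3), and Cdkn2d averaged 1.55 ± 0.215 FPKM in HepKO and 1.25 ± 0.291 FPKM in Flox livers (adjusted p = 0.36). Cdkn2a, an inhibitor gene counted among the p53 regulators, averaged 0.0528 FPKM over the 6 libraries and was not tested. Of 24 cell division genes that p21 can silence through the DREAM and RB complexes, 10 passed the filter, 1 rose and 0 fell (limma; 1 and 1 at an unadjusted p under 0.05; median log2 fold change -0.07). The gene that rose was Rrm2, a subunit of ribonucleotide reductase, with 4.36, 5.21 and 5.20 FPKM in HepKO livers, against 0.764, 0.341 and 0.490 FPKM in Flox livers (log2 fold change 1.96, SE 0.14, adjusted p = 0.00057). Of the 14 untested genes, Cdk1, the mitotic kinase gene, is named after its values were seen. It had 0.0950, 0 and 0.0773 FPKM in HepKO livers, against 0.260, 0.242 and 0.293 FPKM in Flox livers, and with no filter on low values it was called as lower (limma log2 fold change -0.26, adjusted p = 0.032), in a fit that called 3.40% of genes as lower. Over the whole list of 24, tested or not, HepKO values lay above all Flox values for 2 genes and below them for 3. HepKO lay above in this way for 17.2% of all tested genes. The share below, and shares that include untested genes, were not computed, so these counts only describe the list. Pcna, the replication clamp and itself a p53 target, averaged 24.2 ± 5.14 FPKM in HepKO and 23.0 ± 2.11 FPKM in Flox livers (adjusted p = 0.83).

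**Figure D5:**
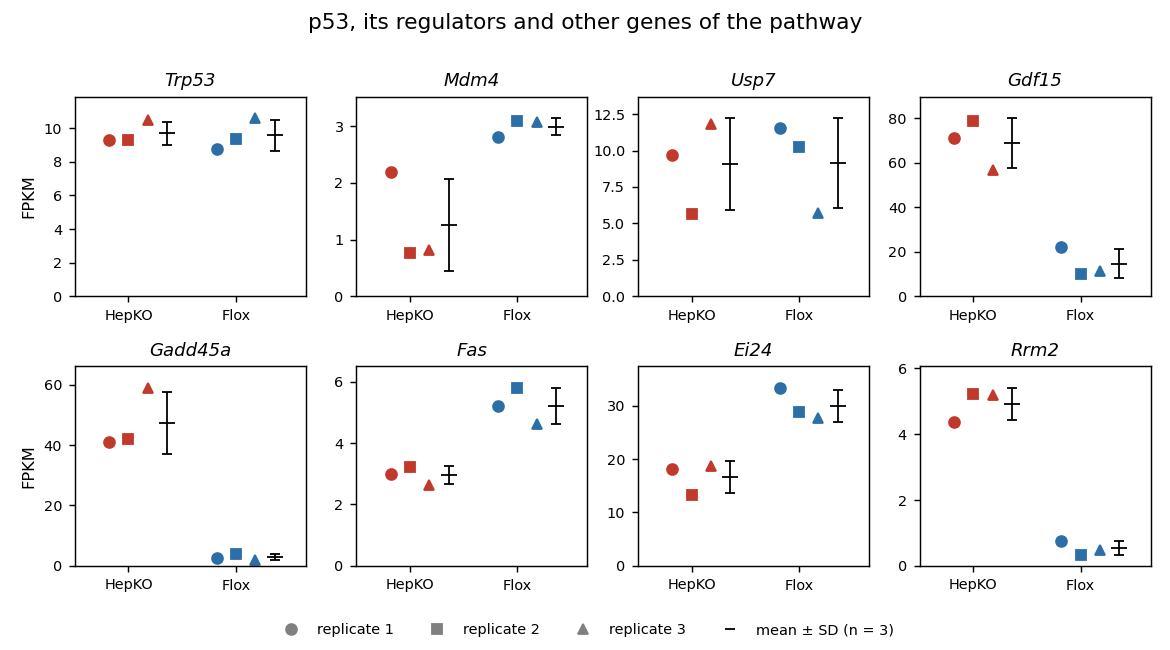
FPKM of p53 itself (Trp53), the regulators Mdm4 and Usp7, and 5 other genes of the pathway (vertical axes, linear from 0) in the 3 HepKO and 3 Flox livers, with the mean ± SD. Trp53 and Usp7 overlap between groups, Gdf15, Gadd45a and Rrm2 are higher in every HepKO liver, Fas and Ei24 are lower in every HepKO liver, and the highest HepKO value of Mdm4 is that of replicate 1.

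Some markers of other cell types differed between the genotypes, and their part in the values above was not tested. In whole liver, fewer cells of a type and less RNA per cell cannot be told apart. The 8 neutrophil markers summed to 132 to 158 FPKM in HepKO livers and 10.5 to 20.2 FPKM in Flox livers. S100a8, S100a9, Retnlg and Csf3r averaged at least 0.5 FPKM in both genotypes and rose (limma adjusted p = 0.0036, 0.00057, 0.00043 and 0.0012). Cxcr2, Il1r2 and Mmp8 were also called as higher but passed the filter only through their HepKO values, with Flox means of 0.241, 0.327 and 0.174 FPKM, so their being tested already depended on a high HepKO level. Ly6g, with 0.137, 0 and 0.235 FPKM in HepKO livers and 0 in all Flox livers, was under the filter. With no filter, 7 of the 8 were called as higher. Monocyte and macrophage markers summed to 88.8 to 109.9 FPKM in HepKO and 56.4 to 79.3 FPKM in Flox livers. Of these, 6 were tested, with 3 higher, 0 lower and a median log2 fold change of 0.36. Lyz2 rose (limma adjusted p = 0.0045). Itgam (0.00096) and Ccr2 (0.043) were called as higher after passing the filter only through HepKO, with Flox means of 0.283 and 0.335 FPKM. Adgre1 (log2 fold change -0.23, adjusted p = 0.29), Cd68 (0.23, adjusted p = 0.46) and Csf1r (0.31, adjusted p = 0.076) did not pass. Ly6c2, under the filter, averaged 0.214 FPKM in HepKO and 0.367 FPKM in Flox livers. The Ccr2 call held in 5 of the 14 alternatives in which it was fitted and was lost with no filter (adjusted p = 0.068). For comparison with the counts that follow, 9.33% of all tested genes were called as higher and 11.0% as lower. Endothelial markers had 3 higher and 1 lower of 6 (33.8 to 47.8 FPKM in HepKO and 26.8 to 30.2 FPKM in Flox livers). The rises were those of Pecam1, Lyve1 and Cdh5. The fall was that of Kdr (log2 fold change -0.86, limma adjusted p = 0.0033), called in each of the 16 alternatives. Cholangiocyte markers had 2 higher of 4 (50.6 to 65.9 FPKM in HepKO and 25.2 to 35.0 FPKM in Flox livers). Kupffer cell markers had 1 higher of 5 (65.3 to 86.8 FPKM in HepKO and 35.6 to 69.3 FPKM in Flox livers). Stellate cell markers had 1 higher of 6 (33.6 to 48.5 FPKM in HepKO and 21.2 to 31.1 FPKM in Flox livers). The median log2 fold changes of these lists were -0.008 and -0.09. The genes called were Marco, with means of 39.8 FPKM in HepKO and 13.0 FPKM in Flox livers, and Dcn, with 33.4 and 18.6 FPKM. None of the 5 T, NK and B cell markers passed the filter, with sums of at most 0.904 FPKM in HepKO and 1.16 FPKM in Flox livers and Ms4a1 at 0 throughout. The hepatocyte markers summed to 41960 to 46970 FPKM in HepKO and 37330 to 43980 FPKM in Flox livers, and had 1 higher and 2 lower of 8. Alb made up most of each sum, with a mean of 26440 FPKM over the 6 libraries. The rise was that of Fgb (log2 fold change 0.81, limma adjusted p = 0.0051). The falls were those of Cps1 (-1.25, adjusted p = 0.0023), called in each of the 16 alternatives, and Hnf4a (-0.41, adjusted p = 0.026). HepKO values also lay below all Flox values for Ttr (adjusted p = 0.053) and above them for Apoa1 (0.20). Without HepKO replicate 1, the counts were 7 higher for neutrophil, 2 for monocyte and macrophage, 1 for Kupffer cell, 2 for endothelial, 1 for cholangiocyte and 0 for stellate cell markers, and 1 lower for hepatocyte markers. The calls lost there were those of Ccr2, Pecam1, Spp1, Dcn and Hnf4a, and they were fragile elsewhere too. The stellate count was 0 without any single library other than HepKO replicate 3. The cholangiocyte count was also 1 without HepKO replicate 2, Flox replicate 2 or Flox replicate 3, and the hepatocyte count of lower genes was also 1 without HepKO replicate 2 or any 1 Flox replicate. The monocyte and macrophage count was 2 whichever library was left out, and the endothelial count of higher genes ran from 2 to 3. Without Flox replicate 2 Clec4g, an endothelial marker, was also called as lower, and without HepKO replicate 2 Apob, a hepatocyte marker, also as higher, which made 2 in each case.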

How the data were processed

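Poly(A) RNA of 6 mouse livers (3 HepKO, 3 Flox) was copied with a dUTP-marked second strand and read from both ends, per the labels' protocols. The authors deposited FPKM for each gene and library, per the file headers. Per the submitters' processing notes, the tools were cutadapt 1.9, StringTie 1.3.4d, HISAT2 2.0.4, edgeR and DESeq2, with no roles stated. The authors also deposited p-values and q-values, whose tool the sources used here do not name, nor do they name the genome build. All 10 genes have the same coordinates in GENCODE M21, so GRCm38 is used.

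Since FPKM are not counts, count models were not applied. The 12712 of 28476 genes that averaged 0.5 FPKM or more were fitted as log2(FPKM + 1) with limma 3.58.1 (R 4.3.3), using genotype alone and a variance trend. Tests were two-sided, with Benjamini-Hochberg adjustment over all tested genes at 0.05. Exact permutation tests used scipy 1.17.1, and Python 3.11.15, pandas 2.3.3 and matplotlib 3.10.9 made the summaries. The 16 alternatives changed the pseudocount, the filter, the scaling or the limma setting, added a replicate block, or left out 1 library.

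The members and lists were chosen with earlier results of these data known. Beyond the 10 genes, Nedd4, Trp53 and Mdm4, the rule names the 2 most abundant tested genes and the 2 largest called changes of each of 6 pathway lists. All symbols of the lists were found in the table.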

Additional observations from a re-analysis of the deposited data

How the results depend on the processing

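Of the 10 p53 target genes, 4 were called as higher, and between 2 (without Flox replicate 3) and 4 when 1 library was left out, and none was called as lower in any of the 16 alternatives. Over all genes, the 2583 calls became 1281 (without HepKO replicate 2) to 2257 (without HepKO replicate 3) when 1 library was left out, 1331 without Flox replicate 2, 1483 without Flox replicate 3 and 1616 without HepKO replicate 1. The labels number the replicates 1 to 3 in both genotypes, but same-numbered libraries did not deviate together (correlations of their deviations over tested genes 0.0029, 0.0021 and -0.025), so the numbers were not taken as pairs. With the replicate number as a block the total was 1551, 3 of the 10 genes were called, and Mdm2 (adjusted p = 0.056) and Mdm4 (0.073) missed the threshold. The block also gave 2 higher monocyte and macrophage, 2 endothelial, 1 cholangiocyte and 0 stellate cell markers, and 1 lower hepatocyte marker. Nedd4 stayed lower and called in all 16 alternatives.

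Genes near no difference changed sign with the setting. Among them, Ccng1, Trp53, Usp7, Zmat3, Trp53inp1 and Pcna did not pass in any alternative. Their lowest limma adjusted p was 0.22, for Trp53inp1 without Flox replicate 1. Ccng1 had log2 fold changes of 0.076 after median-ratio rescaling, 0.050 after rescaling without abundant and mitochondrial genes, and -0.083 to 0.043 without 1 library. Trp53 had -0.034 after rescaling to a common sum and -0.035 to 0.088 without 1 library. Usp7 had 0.063 and 0.038 after the same first 2 rescalings and -0.29 to 0.26 without 1 library. Without 1 library, Zmat3 ran from -0.017 to 0.14, Trp53inp1 from -0.043 to 0.37 and Pcna from -0.098 to 0.18. The cause was not tested. Depth in reads is unknown, so how far it limits the low genes Eda2r, Zmat3 and Phlda3 cannot be given.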
